A study of Mus musculus with 2 samples.

Results

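RNA-binding and splicing proteins were examined in peritoneal macrophages of mice that lack PAC1, a nuclear MAP kinase phosphatase encoded by Dusp2, and of wild-type littermates. All cells had received lipopolysaccharide (LPS), the bacterial cell-wall component that activates Toll-like receptor 4. The genes were chosen by symbol. They are those beginning with Hnrnp, Srsf, Rbm, Sf3a, Sf3b, Snrp, Pabp, Pcbp or Ptbp, with Fmr1, Fxr1, Zranb2, Tra2a, Tra2b, U2af1, U2af2 and Tia1 added singly and an hnRNP gene left out. The array held 93 such probe sets for 70 genes, of 10276 probe sets for 8220 genes with a single symbol. Tra2a and Tra2b were not analysed here.

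The groups were Pac1-/- macrophages with LPS (1 array) and Pac1+/+ wild-type macrophages with LPS (1 array), from age-matched littermates, and the labels name neither strain nor age. In both, the cells had been drawn to the peritoneum over 4 days by the irritant thioglycollate, were selected by adherence to plates, and were then given LPS at 100 ng/ml over 6 hours, so every value describes the level after LPS. The labels give the mice as Pac1-/- with no restriction to a cell type. With 1 array per genotype there was no replicate error, no test and no p-value, and each difference below is a difference between 2 arrays.

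Pre-mRNA is spliced by the spliceosome, in which small nuclear RNAs and their snRNP proteins recognise splice sites, U2AF and the SF3A and SF3B complexes select the branch point and the 3′ splice site, and SR proteins and hnRNP proteins promote or repress the use of nearby exons. PCBP, PTBP, poly(A)-binding and FMR proteins act on exon choice or, in the cytoplasm, on mRNA stability and translation. In macrophages these proteins are known to tune the LPS response: SF3A and SF3B subunits govern the splicing of mouse Myd88, hnRNP M restrains the splicing of Il6 pre-mRNA in a mouse macrophage line, and TIA-1 silences the translation of Tnf mRNA.

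On the Pac1-/- array, transcripts of these genes were more often lower than higher relative to wild type. Values were MAS5 signals in arbitrary units. Probe sets counted as eligible if either signal exceeded a floor of 36.4, the median of all signals, and a signal under the floor was set to it. Of the 93 probe sets 77 were eligible (64 genes), 69 of them above the floor on both arrays, and 16 were below it on both. The log2 ratio of Pac1-/- over wild type was below 0 for 57 of the 77 and above 0 for 20, with a median of −0.16. Over all 5898 eligible named probe sets the median was 0.02 and 47.7% were below 0. Of the 77 members, 8 exceeded the floor on 1 array only, in each case that of wild-type cells. Their ratios were thus below 0 by the way they became eligible. Above the floor on both arrays, 49 of 69 members were below 0, with a median of −0.15 (0.01 for all such probe sets).

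By size, 5 member probe sets were 2-fold or more lower in Pac1-/- cells and 0 were 2-fold or more higher, where 1.09% of all eligible probe sets were 2-fold lower and 1.2% were 2-fold higher. These 5 are 6.49% of the 77. They include both probe sets of Zranb2, and Snrpb2, which exceeded the floor only in wild-type cells. Above the floor on both arrays, 4 of 69 members were 2-fold lower. At 1.5-fold, 13 members were lower and 1 was higher, and 63 lay within 1.5-fold. The 13 are 16.9% of the eligible members, against 5.85% of all eligible probe sets, and the 1 is 1.30%, against 6.53%. Above the floor on both arrays, 12 of 69 members were 1.5-fold lower (17.4%, against 5.07% of all such probe sets) and 1 was higher. Scaling by the array median in place of the trimmed mean shifted the median of all eligible probe sets to −0.10 and gave 20 members 1.5-fold lower and 0 higher, beside 539 lower and 257 higher among all eligible probe sets (345 and 385 with the trimmed mean). The genes were gathered with earlier results of these arrays known, and Fmr1 and Zranb2 entered by name rather than by family. Without the genes added singly, 10 of 72 probe sets were 1.5-fold lower and 1 was higher, 2 were 2-fold lower, and the median was −0.15.

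**Figure D1:**
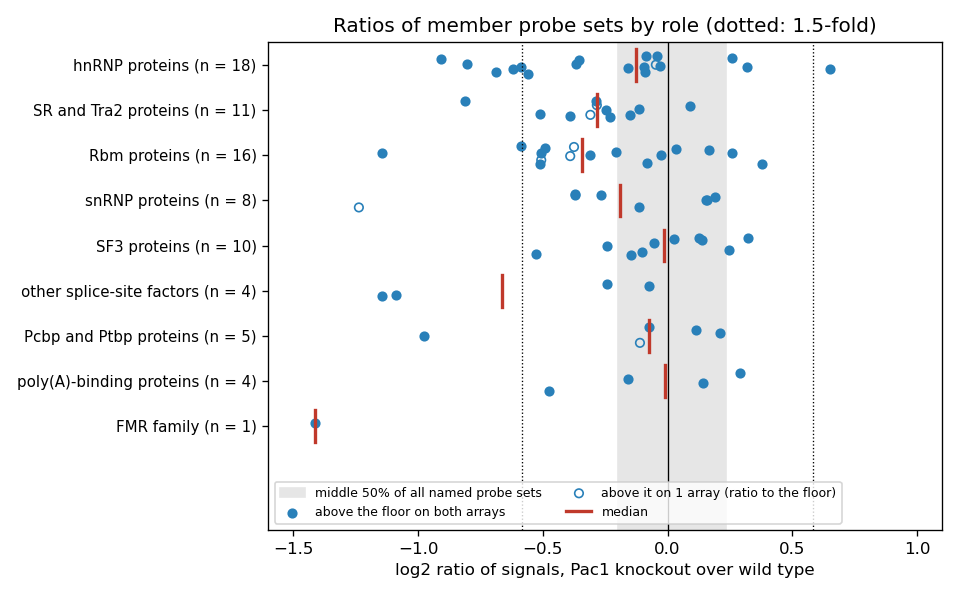
Log2 ratio of the MAS5 signals, Pac1-/- over wild type, for the 77 eligible member probe sets (points), in rows by role with a red line at each row's median. Grey marks the middle 50% of all named eligible probe sets (−0.20 to 0.23), and most hnRNP, SR and Rbm points lie left of 0 while SF3 and poly(A)-binding points lie on both sides of it.

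Promoters are shown for the 4 genes that were 2-fold lower, for Hnrnpm, the hnRNP gene with the lowest ratio, and for Hnrnpc, the gene that was 1.5-fold higher, so that the start regions of genes moving together and apart can be compared. Each runs 5′ to 3′ from 250 bases before to 50 after the gene's first listed start, from RefSeq (GRCm38.p6). Capitals mark matches on either strand to any of 8 motifs, chosen with these sequences in view.
Fmr1, chrX:68678291-68678590, plus strand: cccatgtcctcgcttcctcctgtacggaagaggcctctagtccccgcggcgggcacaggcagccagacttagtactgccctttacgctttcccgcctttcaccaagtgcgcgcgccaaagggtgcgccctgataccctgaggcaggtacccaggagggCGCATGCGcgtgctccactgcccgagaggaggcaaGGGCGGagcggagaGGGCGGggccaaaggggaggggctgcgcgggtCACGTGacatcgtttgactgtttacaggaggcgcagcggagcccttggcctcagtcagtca
Rbm39, chr2:156180189-156180488, minus strand: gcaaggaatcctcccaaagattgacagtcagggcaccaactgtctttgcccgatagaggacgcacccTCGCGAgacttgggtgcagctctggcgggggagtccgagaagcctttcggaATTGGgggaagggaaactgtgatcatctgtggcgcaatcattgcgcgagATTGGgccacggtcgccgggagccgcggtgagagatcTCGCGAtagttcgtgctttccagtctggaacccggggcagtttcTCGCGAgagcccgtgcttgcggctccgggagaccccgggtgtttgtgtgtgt
Zranb2, chr3:157533915-157534214, plus strand: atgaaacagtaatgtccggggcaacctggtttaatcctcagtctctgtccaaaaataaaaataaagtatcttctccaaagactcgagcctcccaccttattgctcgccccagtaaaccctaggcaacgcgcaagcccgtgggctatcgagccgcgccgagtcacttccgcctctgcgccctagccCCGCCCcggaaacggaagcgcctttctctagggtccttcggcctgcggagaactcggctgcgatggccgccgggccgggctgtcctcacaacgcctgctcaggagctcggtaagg
Snrpb2, chr2:143062819-143063118, plus strand: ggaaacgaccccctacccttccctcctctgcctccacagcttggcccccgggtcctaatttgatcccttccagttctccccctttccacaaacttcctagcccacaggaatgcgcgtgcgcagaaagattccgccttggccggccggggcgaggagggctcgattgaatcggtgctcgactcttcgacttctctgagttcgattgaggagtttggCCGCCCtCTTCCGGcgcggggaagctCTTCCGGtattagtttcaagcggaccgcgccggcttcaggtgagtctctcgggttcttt
Hnrnpm, chr17:33685409-33685708, minus strand: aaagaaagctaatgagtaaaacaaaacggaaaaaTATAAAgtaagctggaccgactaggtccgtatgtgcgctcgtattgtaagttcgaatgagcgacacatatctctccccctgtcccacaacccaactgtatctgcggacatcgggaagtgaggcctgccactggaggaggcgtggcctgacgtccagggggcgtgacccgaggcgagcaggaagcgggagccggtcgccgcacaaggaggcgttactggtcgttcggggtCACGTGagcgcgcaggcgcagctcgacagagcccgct
Hnrnpc, chr14:52103972-52104271, minus strand: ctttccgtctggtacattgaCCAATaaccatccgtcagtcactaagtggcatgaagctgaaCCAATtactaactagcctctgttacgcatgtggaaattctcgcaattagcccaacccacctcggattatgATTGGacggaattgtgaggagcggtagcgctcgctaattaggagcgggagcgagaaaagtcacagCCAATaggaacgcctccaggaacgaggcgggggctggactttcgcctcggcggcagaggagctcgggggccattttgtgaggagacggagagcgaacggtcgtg

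The motifs were CCGGAAG for ETS factors, GGGCGG for the GC box, CCAAT for the CCAAT box, CACGTG for the E-box, GCATGCG for NRF1, TGACGTCA for the cAMP response element, TATAAA for the TATA box, and TCGCGA, the centre of a palindrome of housekeeping promoters. In the windows shown no motif overlapped another, apart from the NRF1 motif with its own reverse strand in Fmr1. Fmr1 held that NRF1 match, 2 GC boxes and an E-box. Rbm39 held 2 CCAAT boxes and 3 copies of TCGCGA, Zranb2 held 1 GC box, and Snrpb2 held 2 ETS sites and 1 GC box. Hnrnpm held a TATA box and an E-box, and Hnrnpc held 4 CCAAT boxes. No motif was present in all of the 4 windows of the genes that were 2-fold lower.

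Windows were found for 54 of the 64 eligible member genes. The ETS motif was in 15 of them (27.8%), against 9.12% of 27025 windows of all genes, and the GC box was in 36 (66.7%), against 35.9%. CCAAT was in 28 (51.9%), against 37.9%, and TCGCGA was in 8 (14.8%), against 2.58%. NRF1 was in 2 (3.70%, against 3.64%), the cAMP response element in 1 (1.85%, against 1.88%) and the TATA box in 6 (11.1%, against 14.2%). Member windows had a median of 60.5% G and C, against 52.7% for all genes, and the part of base composition in these shares was not tested. The windows of all genes were not limited to genes on the array or above the floor, as those of the members were. The part of that difference was not tested either. Of the 10 windows of genes 1.5-fold lower, 1 held the ETS motif, 7 the GC box, 6 CCAAT and 3 the E-box. In the same 10, TCGCGA and the TATA box were in 2 each, NRF1 in 1 and the cAMP response element in 0. The E-box was in 4 of the 54 member windows (7.41%) and in 7.24% of all windows. Its 3 windows include Fmr1 and Hnrnpm, which were in view when the motifs were chosen. A match is a description of letters and not of binding.

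Among the hnRNP proteins, which coat nascent transcripts, 15 of 18 eligible probe sets had ratios below 0, 5 of them 1.5-fold or more lower, and 1 was 1.5-fold higher. The group's median log2 ratio was −0.13, and 1 of the 15, Hnrnpa1, exceeded the floor only in wild-type cells. Hnrnpm, the splicing regulator noted above for Il6, had a signal of 419 in Pac1-/- cells, against 786 in wild-type cells, 1.88-fold lower (log2 ratio −0.91). Hnrnph2, a G-tract-binding protein gene on the X chromosome, was in Pac1-/- cells at 57.3% of its wild-type signal of 131 (−0.80, but −0.01 with a floor of 129.9, the 75th percentile of signals, since the wild-type signal is close to that floor). Its close relative Hnrnph1 was at 227 in Pac1-/- cells and 341 in wild-type cells (−0.59), at the 1.5-fold limit and inside it with quantile normalization (−0.57) or loess (−0.58). The third of these relatives, Hnrnph3, lay just inside the 1.5-fold limit at 79.7 in Pac1-/- cells and 118 in wild-type cells (−0.56). All 3 H-family probe sets were thus lower, by 1.48-fold to 1.75-fold.

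Hnrnpr was at 110 in Pac1-/- cells and 168 in wild-type cells (−0.62, and −0.37 with that higher floor). Hnrnpul2, a member of the hnRNP U family, had probe sets that differed in direction. One was at 47.8 in Pac1-/- cells and 77.0 in wild-type cells (−0.69), and the other was at 256 in Pac1-/- cells and 205 in wild-type cells (0.32), so no direction is given for the gene. Hnrnpc, a uridine-tract-binding core protein of hnRNP particles, was the member with the highest ratio, at 115 in Pac1-/- cells and 73.4 in wild-type cells (1.57-fold higher, log2 ratio 0.65, and 0.53 after scaling by the array median).

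The remaining hnRNP probe sets named here were within 1.5-fold. Hnrnpa2b1, an exon repressor and RNA-transport protein, was at 1559 in Pac1-/- cells and 1654 in wild-type cells (−0.09), and its second probe set had the same log2 ratio to 2 decimals, at 104 in Pac1-/- cells and 111 in wild-type cells. Hnrnpdl was at 1688 in Pac1-/- cells and 1804 in wild-type cells (−0.10), and its second probe set was at 162 in Pac1-/- cells and 136 in wild-type cells (0.26). Hnrnpk, a protein with KH domains that binds C-rich RNA, was at 482 in Pac1-/- cells and 616 in wild-type cells (−0.36), and Hnrnpl, which binds CA repeats, had the same log2 ratio to 2 decimals at 110 in Pac1-/- cells and 141 in wild-type cells. Hnrnpu was at 209 in Pac1-/- cells and 214 in wild-type cells (−0.03), from 1 of its 2 probe sets.

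Among SR proteins, arginine- and serine-rich activators of exon inclusion, 10 of 11 eligible probe sets had ratios below 0 and 1 was above, with a median of −0.28. The 10 include both Srsf10 probe sets, which exceeded the floor only in wild-type cells. Srsf2, the SR protein long used as the marker of nuclear speckles, had 2 probe sets. The first was at 168 in Pac1-/- cells and 295 in wild-type cells (1.75-fold lower, log2 ratio −0.81), and the second was at 1428 in Pac1-/- cells and 1694 in wild-type cells (−0.25), so they shared a direction but not a size. Srsf11 was at 489 in Pac1-/- cells and 696 in wild-type cells (−0.51). Srsf5 was at 1276 in Pac1-/- cells and 1416 in wild-type cells (−0.15).

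Srsf3, which also promotes mRNA export, was at 496 in Pac1-/- cells and 604 in wild-type cells (−0.29), and Srsf9 was at 382 in Pac1-/- cells and 449 in wild-type cells (−0.23). Srsf4 had 1 probe set on each side of 0, at 74.3 in Pac1-/- cells and 69.8 in wild-type cells (0.09, but −0.03 after scaling by the array median), and at 168 in Pac1-/- cells and 182 in wild-type cells (−0.11). For Srsf1, the founding member of the family, 1 of 4 probe sets was eligible, at 82.8 in Pac1-/- cells and 109 in wild-type cells (−0.39). Only 1 SR probe set, the first of Srsf2, was past 1.5-fold, and the shift of this group consisted of many small differences in the same direction on the same pair of arrays.

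**Figure D2:**
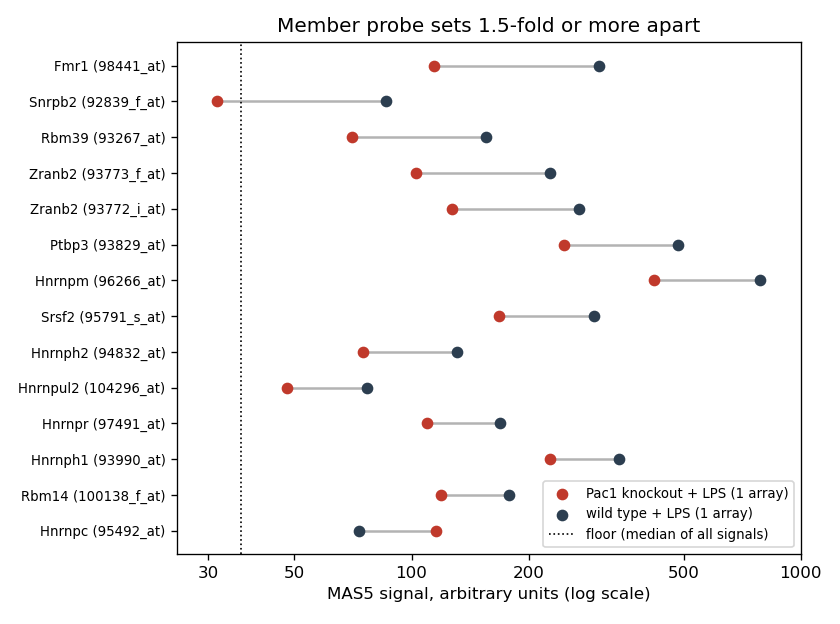
MAS5 signal (log scale) of the 14 member probe sets that were 1.5-fold or more apart, with the Pac1-/- array in red, the wild-type array in dark blue and the floor of 36.4 as a dotted line. In 13 rows the red point lies left of the blue one, with Fmr1 at the top at 114 and 303, and in the Hnrnpc row it lies right.

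Among Rbm proteins, a mixed set named only for an RNA-recognition motif, 12 of 16 eligible probe sets were below 0 and 4 above, with a median of −0.34. Of the 12, 3 exceeded the floor only in wild-type cells (Rbm6, Rbmx and the second probe set of Rbm39). Rbm39, a splicing factor related to U2AF2 and a coactivator of transcription, was at 70.2 in Pac1-/- cells and 155 in wild-type cells (2.21-fold lower, log2 ratio −1.15, but −0.26 with the floor at the 75th percentile of signals). Its second probe set was at 8.6 in Pac1-/- cells, under the floor, and 47.2 in wild-type cells, at least 1.30-fold lower. That ratio was below 0 by the way the probe set became eligible, so it adds no second reading of direction. Rbm14, a coactivator found in paraspeckles, was at 119 in Pac1-/- cells and 178 in wild-type cells and stood at the 1.5-fold limit (−0.59, and −0.46 with that higher floor).

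Rbm8a, the Y14 subunit of the exon junction complex, was at 433 in Pac1-/- cells and 617 in wild-type cells (−0.51). Rbms1 was lower on both of its probe sets, at 775 in Pac1-/- cells and 1088 in wild-type cells (−0.49), and at 822 in Pac1-/- cells and 948 in wild-type cells (−0.20). Rbm17, a 3′ splice-site factor, was at 655 in Pac1-/- cells and 694 in wild-type cells (−0.08). Rbm42 had the highest ratio of the group, at 309 in Pac1-/- cells and 237 in wild-type cells (0.38). Rbm22, Rbm25 and Rbm26 were below the floor on both arrays.

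Among snRNP proteins 5 of 8 eligible probe sets were below 0 and 3 above, with a median of −0.19. Of the 5, 1 (Snrpb2) exceeded the floor only in wild-type cells. The 3 include Snrp1c-ps2, a pseudogene by its symbol that was counted through its prefix, at 58.7 in Pac1-/- cells and 52.8 in wild-type cells (0.15). Snrpb2, the U2 snRNP protein B″, was at 31.6 in Pac1-/- cells, under the floor, and 85.8 in wild-type cells, at least 2.36-fold lower. Snrpe, a protein of the Sm ring that surrounds the small nuclear RNA, was at 530 in Pac1-/- cells and 685 in wild-type cells (−0.37). Snrpc, the U1 snRNP protein that helps hold the 5′ splice site, had the same log2 ratio to 2 decimals at 116 in Pac1-/- cells and 150 in wild-type cells. The Sm protein gene Snrpg was at 282 in Pac1-/- cells and 305 in wild-type cells (−0.11), and Snrpd3 was at 74.8 in Pac1-/- cells and 65.6 in wild-type cells (0.19). Snrpa1, which pairs with Snrpb2 in the U2 snRNP, was at 95.7 in Pac1-/- cells and 85.8 in wild-type cells (0.16), so the U2 pair did not share a direction.

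The branch-point complexes SF3A and SF3B were balanced, with 5 of 10 eligible probe sets below 0, 5 above, 0 past 1.5-fold and a median of −0.01. Sf3b1, the large subunit that clamps the branch-point helix, was at 208 in Pac1-/- cells and 190 in wild-type cells (0.13), with its second probe set at 54.5 in Pac1-/- cells and 43.6 in wild-type cells (0.32). Sf3a1, one of the subunits that act on Myd88, was at 124 in Pac1-/- cells and 113 in wild-type cells (0.14). Sf3a2 was at 1020 in Pac1-/- cells and 1093 in wild-type cells (−0.10), and its second probe set was at 335 in Pac1-/- cells and 482 in wild-type cells (−0.53). Sf3b5 was at 602 in Pac1-/- cells and 667 in wild-type cells (−0.15), and Sf3b6 was at 675 in Pac1-/- cells and 700 in wild-type cells (−0.05).

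Of the other splice-site factors, Zranb2, a zinc-finger protein that binds 5′ splice-site-like RNA, was lower on both of its probe sets. They were at 127 in Pac1-/- cells and 270 in wild-type cells (2.13-fold lower, log2 ratio −1.09), and at 103 in Pac1-/- cells and 227 in wild-type cells (2.21-fold lower, −1.14). Both carry a letter suffix in the probe-set name, which on this array marks relaxed probe selection or possible matches to related transcripts. So do the probe sets of Snrpb2 and Rbm14 and both of Srsf2, and in all 16 of the 77 eligible members. Whether the Zranb2 sets, or those of Srsf2, share probes was not tested. U2af2, which binds the polypyrimidine tract, was at 2184 in Pac1-/- cells and 2584 in wild-type cells (−0.24), and its partner U2af1 was at 233 in Pac1-/- cells and 246 in wild-type cells (−0.08). Tia1 was below the floor on both arrays.

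Among KH-domain and pyrimidine-tract proteins, Ptbp3, a paralogue of the splicing repressor PTB found in blood cells, was at 246 in Pac1-/- cells and 484 in wild-type cells (1.97-fold lower, log2 ratio −0.98), just inside the 2-fold limit. The poly(C)-binding protein genes were within 1.5-fold. Pcbp1 was at 2730 in Pac1-/- cells and 2360 in wild-type cells (0.21), and the probe sets of Pcbp2 were at 648 in Pac1-/- cells and 598 in wild-type cells (0.12, but just below 0 after scaling by the array median) and at 1287 in Pac1-/- cells and 1354 in wild-type cells (−0.07). Ptbp2, the neuronal paralogue, was under the floor in Pac1-/- cells and just above it in wild-type cells on 1 probe set, and under it on both arrays on the other.

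Poly(A)-binding proteins were split, with 2 of 4 eligible probe sets above 0, 2 below and 0 past 1.5-fold. Pabpc1, the main cytoplasmic one, was at 3494 in Pac1-/- cells and 2856 in wild-type cells (0.29), and Pabpc4 was at 297 in Pac1-/- cells and 331 in wild-type cells (−0.16). Pabpn1, the nuclear protein that sets poly(A) tail length, was at 322 in Pac1-/- cells and 448 in wild-type cells (−0.48).

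Fmr1 had the lowest ratio of all eligible members. It encodes FMRP, an RNA-binding repressor of translation whose loss causes fragile X syndrome in humans. Its single probe set was at 114 in Pac1-/- cells and 303 in wild-type cells, 37.5% of the wild-type signal (log2 ratio −1.41). Its paralogue Fxr1 was below the floor on both arrays, at 33.8 in Pac1-/- cells and 20.8 in wild-type cells, so the pair could not be compared.

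**Figure D3:**
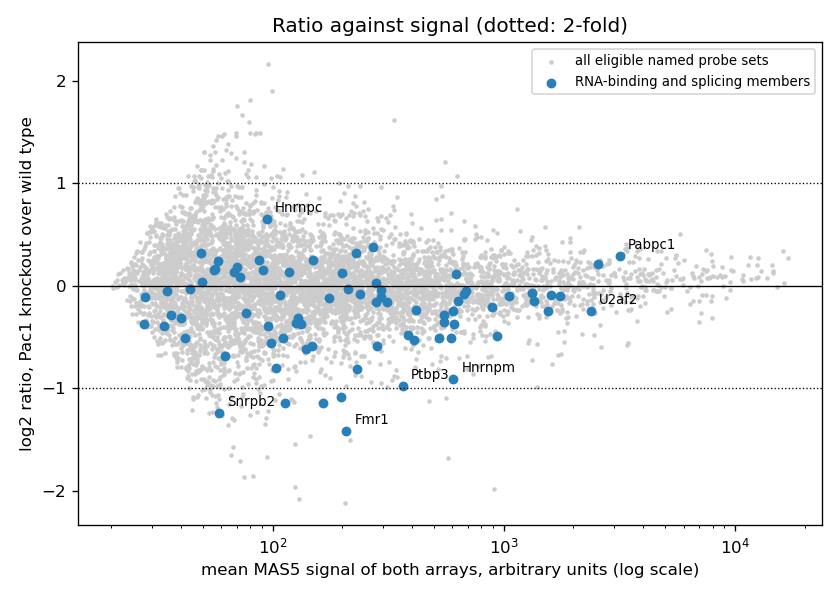
Log2 ratio, Pac1-/- over wild type, against the mean MAS5 signal (log scale) for the 77 eligible members (blue) and all 5898 eligible named probe sets (grey), with dotted lines at 2-fold. The 5 members below the lower line have mean signals between 58.7 and 209, and members with signals of 1000 or more stay close to 0.

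The spread of ratios narrows as signals rise, so members were also set beside all probe sets of like signal. At mean signals from 100 to 300, 9 of 26 members were 1.5-fold or more lower and 0 were higher, against 5.13% lower and 4.77% higher of 1676 probe sets. From 300 to 1000, 2 of 18 members were lower and 0 higher, against 2.94% and 1.86% of 1022 probe sets. At 1000 or more, 0 of 9 members were 1.5-fold apart, against 1.34% of 521 probe sets. Below 100, 2 of 24 members were lower and 1 was higher, against 8.32% and 10.6% of 2679 probe sets, so the dim members were near the background.

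Probe sets of the same gene show how far 2 readings of a gene diverge. Whether they detect the same transcripts was not tested. Of the 13 member genes with 2 eligible probe sets, 8 had both ratios on the same side of 0 (61.5%), and of all 569 genes with exactly 2 eligible probe sets 315 did (55.4%). The 8 include Srsf10, whose 2 probe sets exceeded the floor only in wild-type cells, and Rbm39, with 1 such probe set. The median gap between the log2 ratios of a gene's probe sets was 0.29 for members and 0.34 over all such genes. Each is larger than the median shift of the members, but a gap between single probe sets and a group median are unlike measures. The gap reached 1.5-fold for Hnrnpul2 and Rbm39, and was 0.56 for Srsf2. For Zranb2 it was 0.05.

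**Figure D4:**
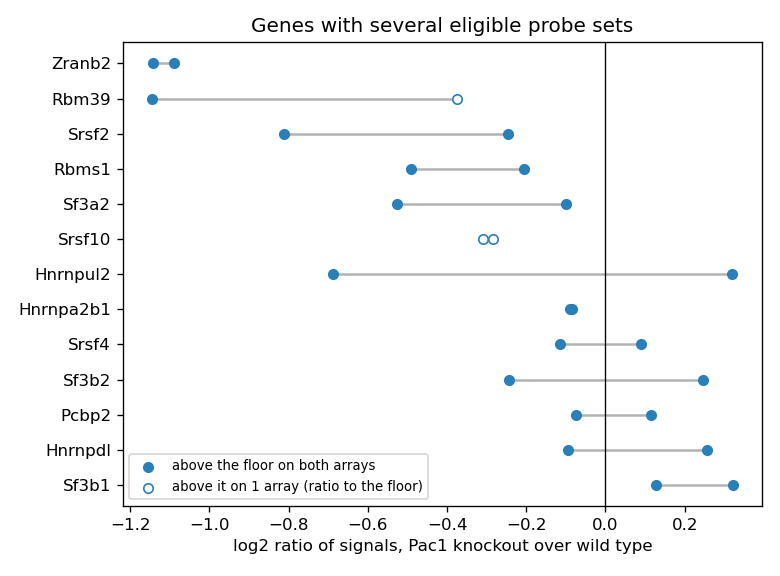
Log2 ratios, Pac1-/- over wild type, of the 13 member genes with 2 eligible probe sets, joined by a line per gene and ordered by their mean. Zranb2 and Rbm39 lie left of 0 on both probe sets, and Hnrnpul2 spans 0 with a gap of 1.01.

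By chromosome, the members' median was below 0 on 14 of the 19 chromosomes that held an eligible member. It was above 0 on chromosomes 1, 8, 14, 15 and 18, between 0.03 and 0.14. The median of all eligible probe sets per chromosome lay between −0.03 (chromosome 15) and 0.08 (chromosome 14). Some chromosomes held only 1 eligible member. The 3 eligible members on the X chromosome (Fmr1, Hnrnph2 and Rbmx) had a median log2 ratio of −0.80, while all 171 eligible probe sets of that chromosome had a median of 0.04. Of these members, Rbmx was under the floor in Pac1-/- cells (31.8). On chromosome 3, which holds Zranb2, 6 members had a median of −0.51, and on chromosome 11 another 6 had a median of −0.32, against 0.01 and 0.03 for all eligible probe sets of these chromosomes. The 1 eligible member on chromosome 9, Rbm6, was under the floor in Pac1-/- cells and at 47.7 in wild-type cells, at least 1.31-fold lower (log2 ratio −0.39). On chromosome 2, which also carries Dusp2, 9 members had a median of −0.37, while all 461 eligible probe sets there had a median of −0.01, and the 2-fold lower Rbm39 and Snrpb2 are on it. Without the chromosome 2 members, 3 probe sets were 2-fold lower, 11 of 68 were 1.5-fold lower and the median was −0.15.

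Other genes of RNA processing, a list of spliceosome, export, 3′ end and RNA-binding genes outside these families, gave a smaller shift the same way. This list too was chosen with results of these arrays known. Of 111 measured genes with 144 probe sets, 106 probe sets were eligible, 66 were below 0 and 40 above, and the median was −0.11. Of the 106, 92 were above the floor on both arrays and 14 on 1 array only. The direction of these 14, among them Cpsf4 (lower) and Lsm2 (higher), was set by the way they became eligible. They are included in the counts that follow. At 1.5-fold 11 were lower (10.4%, against 5.85% of all eligible probe sets) and 2 higher (1.89%, against 6.53%). At 2-fold 2 were lower (1.89%, against 1.09%) and 0 higher (against 1.2%). Cpsf4, a subunit of the 3′ end cleavage factor, was under the floor at 26.2 in Pac1-/- cells and at 108 in wild-type cells, at least 2.98-fold lower. Celf2, a regulator of alternative splicing in T cells, was at 57.4 in Pac1-/- cells and 115 in wild-type cells, 49.9% of the wild-type signal.

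Clk4, a kinase that phosphorylates SR proteins, was at 59.2 in Pac1-/- cells and 107 in wild-type cells (−0.85). The single-stranded-DNA and RNA-binding protein gene Fubp1 was at 37.2 in Pac1-/- cells and 68.9 in wild-type cells (−0.89). In the other direction stood Cpsf3, the nuclease that cuts at the poly(A) site, at 79.6 in Pac1-/- cells and 51.7 in wild-type cells (0.62), the helicase gene Dhx16 (0.58) and Raly (0.52). Lsm2, which was 35.4 in wild-type cells and therefore set to the floor, was at 66.0 in Pac1-/- cells, at least 1.81-fold higher.

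**Figure D5:**
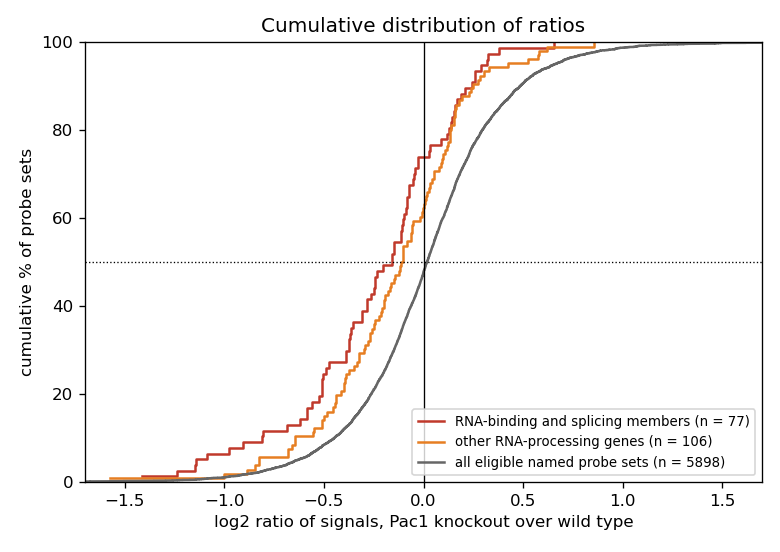
Cumulative percentage of probe sets against the log2 ratio, Pac1-/- over wild type, for the 77 members, 106 probe sets of other RNA-processing genes and all 5898 eligible named probe sets. The members' curve crosses 50% at −0.16, that of the other RNA-processing genes at −0.11 and that of all probe sets at 0.02.

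As a check of the labels, Dusp2 was at 76.8 in Pac1-/- cells and 333 in wild-type cells (log2 ratio −2.12). No source used here says if these probes fall within the deletion. All 10 measured macrophage markers were above the floor on both arrays. Itgam, the gene of the Mac-1 antigen used to assess purity, was at 356 in Pac1-/- cells and 301 in wild-type cells. Over this list signals summed to 26215 in Pac1-/- cells and 23278 in wild-type cells, with 7 genes higher and 3 lower in Pac1-/- cells, the lower ones being Msr1 (1366 in Pac1-/- cells, 2171 in wild-type cells), Mrc1 (295 in Pac1-/- cells, 361 in wild-type cells) and Marco.

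Of markers of other cells, those above the floor on both arrays were 0 of 6 for T and NK cells, 0 of 4 for eosinophils, 0 of 2 for erythroid cells and platelets, 3 of 7 for neutrophils, 2 of 6 for mast cells and basophils, 5 of 6 for B cells, 3 of 4 for dendritic cells, 2 of 5 for endothelial cells and 7 of 9 for stromal and mesothelial cells. Some markers were above it on 1 array. The eosinophil granule gene Prg2 was at 100.1 in Pac1-/- cells and 16.0 in wild-type cells, the B cell receptor gene Cd79a was at 100.2 in Pac1-/- cells and 20.7 in wild-type cells, and the mast cell receptor gene Kit was at 42.7 in Pac1-/- cells and 20.1 in wild-type cells. In the other direction, the haemoglobin gene Hba-a1 was at 12.8 in Pac1-/- cells and 78.0 in wild-type cells, and Cd4 was at 32.8 in Pac1-/- cells and 74.5 in wild-type cells.

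The other B cell markers went both ways, with Blnk (1377 in Pac1-/- cells, 1124 in wild-type cells) and Cd22 higher and Ms4a1 (52.2 in Pac1-/- cells, 87.4 in wild-type cells), Pax5 and Cd79b lower in Pac1-/- cells. Among stromal markers Acta2 was at 52.2 in Pac1-/- cells and 133 in wild-type cells, and Dcn at 318 in Pac1-/- cells and 247 in wild-type cells. Summed over each list, signals in Pac1-/- cells and then in wild-type cells were 1849 and 1557 for B cells, 1145 and 1385 for stromal and mesothelial cells, 127 and 29.6 for eosinophils, 17.0 and 79.3 for erythroid cells and platelets, 95.6 and 128 for T and NK cells, 488 and 557 for neutrophils, 826 and 907 for mast cells and basophils, 1060 and 1103 for dendritic cells, and 2349 and 2390 for endothelial cells. Single genes made up most of some sums: Hdc (556 in Pac1-/- cells, 757 in wild-type cells) for mast cells and basophils, Eng (2121 and 2111) for endothelial cells, and Blnk for B cells. Besides Eng, Pecam1, Cdh5 and Kdr were under the floor on both arrays and Vwf was above it. Besides Hdc, Cpa3, Fcer1a and Mcpt4 were under it on both arrays, and Tpsb2 was above it on both. Whether the macrophages themselves expressed Hdc, Eng, Blnk or other listed markers was not tested. Of the 6 mast cell and basophil markers, 5 were higher in Pac1-/- cells and 1, Hdc, was lower. The part of these cells in the members' ratios was not tested. The ratio of 3′ to 5′ control signal was 2.42 in Pac1-/- cells and 2.54 in wild-type cells for actin, and 1.62 in Pac1-/- cells and 1.81 in wild-type cells for Gapdh. In RNA from a whole preparation, fewer cells of a type and less RNA per cell cannot be told apart.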

How the data were processed

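RNA of LPS-treated peritoneal macrophages was measured on 2 Affymetrix arrays, 1 per genotype, and the labels do not state how many mice each represents. The deposited values are 1 MAS5 signal intensity per probe set on a linear scale, which the authors computed with MAS5, per the submitters' processing notes, and their 2% trimmed means were equal (150). Between 500 and 1000 ng of RNA was amplified from a poly(T) primer, per the labels' protocols. Such amplification weights 3′ ends, so fold changes were computed only within a probe set. Sums over marker lists and 3′ to 5′ ratios of control probe sets join different probe sets, and were compared only between the arrays.

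Of 12654 probe sets, 10276 had 1 symbol in the platform annotation and were no controls, 363 had several symbols and 1993 had none listed, and the RefSeq gene table (GRCm38.p6) changed 0 symbols. Signals were scaled to the same 2% trimmed mean, floored at the median of all signals (36.4), and the log2 ratio was taken. Detection calls were not used here. The functions for the ratios were tested on simulated data. Python 3.11.15, numpy 2.4.6, pandas 2.3.3, scipy 1.17.1, statsmodels 0.14.6 and matplotlib 3.10.9 were used.

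The members, gene lists and tests were chosen with earlier results of these data known. Named were members 1.5-fold or more apart, the 3 with the highest mean signal and the extreme ratios of each role group, genes whose probe sets were 1.5-fold or more apart, and, of the other RNA-processing genes, those 2-fold apart and the 3 highest and 3 lowest ratios above the floor on both arrays. Lsm2 and further members were named after their values were seen. Alternatives changed the scaling, the floor, the probe sets used and the summary per gene. The number of arrays limits the precision.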

Additional observations from a re-analysis of the deposited data

How the results depend on the processing

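The median log2 ratio of the members was below 0 under each of the 14 alternatives. Of 104 values of the 1.5-fold members under the alternatives 0 were on the other side of 0, and of 222 values of the other named members 2 were, both under scaling by the array median (Srsf4, −0.03, and Pcbp2, −0.00263). A changed floor or a dropped probe set cannot move a ratio across 0, so these counts are no measure of robustness. The members' median was −0.28 after scaling by the array median, −0.17 with loess or with probe sets averaged per gene, and −0.15 without letter-suffix probe sets, in the prefix families only, above the floor on both arrays only, without chromosome 2 members or without chromosome X members. Scaling by the median put the median of all eligible probe sets at −0.10, against 0.02 in the main processing, and the split of all 1.5-fold calls at 257 higher and 539 lower, against 385 and 345 in the main processing. The members' median minus that of all probe sets was −0.18 under both scalings. With the median scaling 20 members were 1.5-fold lower and 0 higher. With the floor at the 25th percentile of signals 8 members were 2-fold lower and 3 were 1.5-fold higher. There 19 were 1.5-fold lower (21.3%, against 12.1% of all eligible probe sets, of which 15.1% were higher). With no floor 8 were 2-fold lower, 3 were 2-fold higher and 7 were 1.5-fold higher. Again 19 were 1.5-fold lower (20.4%, against 15.4% of all, of which 19.5% were higher). The members' excess at 1.5-fold lower was thus smaller than in the main processing (16.9%, against 5.85%). With the floor at the 75th percentile, which left 51 eligible, 2 were 2-fold lower, 7 were 1.5-fold lower and 0 were 1.5-fold higher. These 7 are 13.7%, against 2.64% of all eligible probe sets. Without the letter-suffix probe sets, which include Snrpb2, Rbm14, both of Zranb2 and both of Srsf2, 2 were 2-fold lower and 8 were 1.5-fold lower. These 8 are 13.1%, against 5.80% of all eligible probe sets without such a suffix. With probe sets averaged per gene 3 genes were 2-fold lower, without chromosome 2 members 3 probe sets were, and in the prefix families 2 were. Of the 14 members 1.5-fold apart, 8 stayed so under every alternative that gave them a value. The floor at the 75th percentile, which lies above many of these signals, put Rbm39 at −0.26, Hnrnph2 at −0.01, Hnrnpr at −0.37 and Rbm14 at −0.46. Hnrnph1 was at −0.57 with quantile normalization and −0.58 with loess, and Hnrnpc at 0.53 after median scaling. The cause of these changes was not tested beyond the number of probe sets each alternative keeps. The prefix families, both-array and chromosome alternatives were chosen after seeing the data. No paired analysis was possible because each genotype had a single array. Signals near the floor have no detection call, which limits what can be said of Snrpb2, the second Rbm39 probe set and other dim members.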

Other observations

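Of the 70 member genes, 6 had no probe set above the floor on either array. They were Fxr1, Rbm22, Rbm25, Rbm26, Srsf6 and Tia1, with signals between 4.2 and 33.8.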
